A study of Mus musculus with 6 samples.

Results

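Complex I of the respiratory chain is built from many nuclear-encoded subunits, and the genes for most of these subunits and for several of the factors that assemble them carry the symbol prefix Nduf. All 45 genes whose symbol starts with Nduf were taken from the 23997 gene symbols measured in mouse gastrocnemius muscle. Of these, 7 carry the prefix Ndufaf, used for assembly factors, and the other 38 are called subunits here. By their known roles, 35 of the 38 were grouped by position in the complex, Ndufab1 was kept apart, and Ndufa4 and Ndufa4l2 were treated as genes that share the prefix only.

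RNA was sequenced from 3 HrasG12V mice (mice 2276, 2278 and 2279) and 3 WT mice (mice 2277, 2280 and 2281), all 21 days old and untreated, with 1 library per mouse. The HrasG12V mice had the genotype HrasG12V/+ on the strain Caggs-Cre+/HrasG12V/+. The WT mice were Hras+/+ littermates of the strain Caggs-Cre-/HrasflG12V/+, so they carried the conditional allele without the recombinase. Cre was driven by the broadly active Caggs promoter, the mutant Hras was expressed from its own locus, and the mice had a mixed background of SWR/J, 129S1/SvImJ and C57BL/6J. Levels are given as FPKM, a read abundance per length of transcript and per size of library, which the authors had normalized between libraries. The labels give no sex, litter identity or batch, and the FPKM do not tell the mutant Hras codon from the normal one.

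Complex I takes electrons from NADH, passes them along a chain of iron-sulphur clusters in its matrix arm to ubiquinone, and pumps protons through its membrane arm. Its core subunits carry the flavin, the clusters and the quinone site, while accessory subunits surround this core. The remaining core subunits are encoded in mitochondrial DNA and do not carry the prefix. Assembly factors join the modules of the complex and are not part of the finished enzyme. Muscle fibres rich in mitochondria hold large amounts of the complex.

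Across genes outside the Nduf family, HrasG12V mouse 2276 stood apart from HrasG12V mice 2278 and 2279. The total FPKM per library ranged from 413020 to 814013, highest in mouse 2276, while the median FPKM of the 13359 genes tested ranged only from 6.39 to 6.64. Markers of B cells summed to 74.1 FPKM in mouse 2278 and 59.3 FPKM in mouse 2279, against 1.33 FPKM in mouse 2276 and 0.562 to 1.07 FPKM in the WT mice, with Ms4a1 listed at 0 in mouse 2276 and Pax5 at 0 in mouse 2280. T cell markers summed to 29.5 and 36.7 FPKM in mice 2278 and 2279, against 1.14 in mouse 2276 and 0.638 to 0.887 in WT. White adipocyte markers summed to 231 and 183 FPKM in those mice, against 10.4 to 55.7 FPKM in the other 4 mice, and brown adipocyte markers summed to 45.7, 10.9 and 10.8 FPKM in mice 2278, 2279 and 2276 against 2.11 to 6.01 in WT, with Ucp1 listed at 0 in mouse 2281. Of the sum in mouse 2278, Ucp1 made up 35.8 FPKM, and Elovl3 was lower there, at 0.490 FPKM, than in every WT mouse. Of 5 general muscle fibre markers, Acta1 and Myh4 were listed at 0 in all 6 libraries and Ckm in all but mouse 2278, Myh1 was listed at 0 in WT mice 2277 and 2280, and Tnnt3 was listed at 0 in mouse 2276 alone, against 6893 to 10419 FPKM in the other mice. Such zeros can be failed estimates. Fast 2B fibre markers summed to 15581 to 25762 FPKM in WT and 14707 to 38138 FPKM in HrasG12V. Pvalb made up most of each of these sums, at 32969 FPKM in mouse 2276 and 20287 FPKM in WT mouse 2281. Actn3 and Mybpc2 lay inside the WT range in mouse 2276 and below it in mouse 2278. Slow fibre markers summed to 1078 and 1112 FPKM in WT mice 2277 and 2280, but to 16.5 FPKM in WT mouse 2281, and to 923 to 3150 FPKM in HrasG12V. In bulk muscle, fewer cells of a type and less RNA per cell cannot be told apart.

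The Nduf transcripts varied little among the 3 WT mice and widely among the 3 HrasG12V mice. The FPKM of the 38 subunits summed to 11845, 11062 and 11873 in WT mice 2277, 2280 and 2281. The same sum was 23482 in mouse 2276, 6818 in mouse 2278 and 6558 in mouse 2279. Relative to the WT mean of each gene on the log2(FPKM + 0.1) scale, the median subunit was at 1.07 in mouse 2276, at -0.75 in mouse 2278 and at -0.86 in mouse 2279, which correspond to 2.09, 0.593 and 0.550 of the WT level. The medians over all genes tested were 0.04, -0.08 and -0.04 in the same mice. Mouse 2276 was thus high and the other HrasG12V mice were low, and the ranges of the genotypes overlapped for 44 of 45 members.

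The assembly factors, which were expressed at lower levels per length, were ordered in the same way. Their summed FPKM was 114, 107 and 117 in the WT mice, 162 in mouse 2276, 80.8 in mouse 2278 and 60.4 in mouse 2279. Their median log2 differences from WT were 0.61, -0.52 and -0.88 in mice 2276, 2278 and 2279. Single values ran from 5.59 to 45.6 FPKM for the assembly factors and from 1.86 to 1998 FPKM for the subunits, and no member was listed at 0 in any library.

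**Figure D1:**
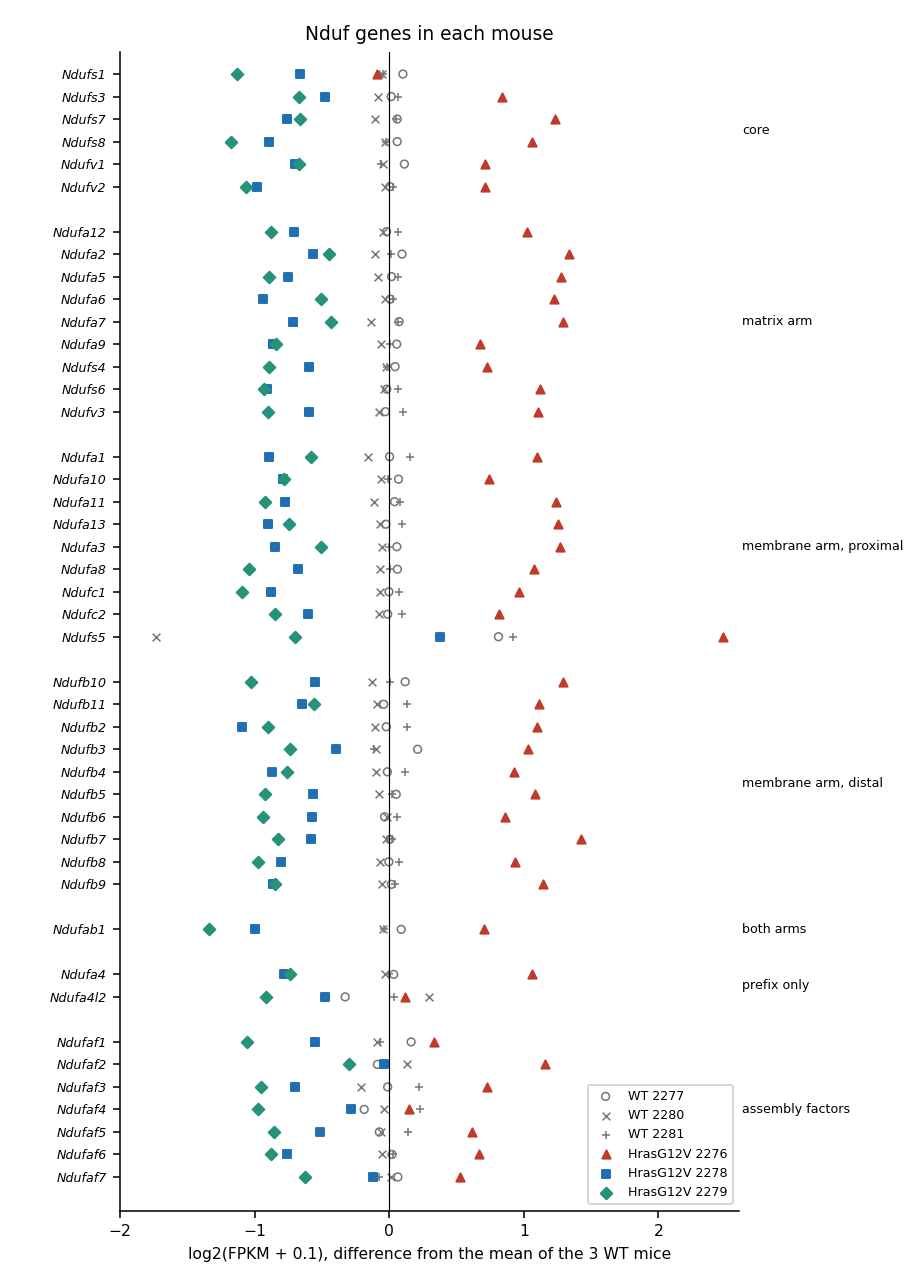
Each row is 1 of 44 of the 45 Nduf genes, grouped by role, and each symbol is 1 mouse, placed on the horizontal axis by its log2(FPKM + 0.1) minus the mean of the 3 WT mice. HrasG12V mouse 2276 (triangles) lies to the right of every WT mouse (grey) for 41 of these genes, and mice 2278 (squares) and 2279 (diamonds) lie to the left of every WT mouse for 42 and 43 of them.

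Counted gene by gene, mouse 2276 was above every WT mouse for 36 of 38 subunits and 6 of 7 assembly factors, where 43.1% of all genes tested were. Mouse 2278 was below every WT mouse for 37 subunits and 6 assembly factors, against 44.9% of all genes, and mouse 2279 for 37 subunits and all 7 assembly factors, against 41.6%. Both of these mice were below every WT mouse for 43 members, against 28.3% of all genes. The whole pattern, mouse 2276 above and mice 2278 and 2279 below every WT mouse, was seen for 35 subunits and 5 assembly factors, 40 of 45 members or 88.9%, against 14% of all genes tested. The 5 members without it were Ndufa4l2, Ndufaf2, Ndufaf4, Ndufs1 and Ndufs5. All 3 HrasG12V mice were below all 3 WT mice for 1 of 45 members, Ndufs1, against 10.4% of all genes, and for no member were all 3 above, against 8.11%.

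The spread within genotypes was as unequal as these values imply. The SD of log2(FPKM + 0.1) over 3 mice had a median over members of 0.08 in WT and 1.05 in HrasG12V, and it was larger in HrasG12V for all 45 members. Over all genes tested the median SD was 0.13 in WT and 0.42 in HrasG12V, and it was larger in HrasG12V for 86.8% of genes.

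In the comparison of genotypes with all 6 mice, no Nduf gene passed the test. Fitted with limma across all genes tested, 0 of 45 members had an unadjusted p below 0.05 in either direction, where 4.99% of all genes were lower and 5.18% were higher at that limit. None passed an adjusted p of 0.05 (limma, Benjamini-Hochberg over all genes tested), which 0.0599% of all genes did. The fitted log2 fold change of HrasG12V over WT was negative for 40 members and positive for 5, where 53.4% of all genes were negative. Its median was -0.19 for subunits and -0.31 for assembly factors, against -0.03 for all genes. The SE of a subunit's fold change was 0.53 in the median and ran from 0.30 to 1.0, and the 95% interval of every member included no change.

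The outcome rested on mouse 2276. Without it, 41 of 45 members were lower in HrasG12V at an unadjusted p below 0.05, 37 subunits and 4 assembly factors, against 17.4% of all genes tested. At an adjusted p below 0.05 (limma), 31 members fell, 29 subunits and 2 assembly factors, against 4.30% of all genes. All 45 fold changes were then negative, with medians of -0.77 for subunits, -0.69 for assembly factors and -0.07 for all genes. Without mouse 2278 the medians were 0.09 for subunits and -0.11 for assembly factors, and without mouse 2279 they were 0.14 and 0.01. No member passed the adjusted p in either of these fits, nor without any 1 of the WT mice. The direction of the genotype difference in the Nduf genes therefore depended on which HrasG12V mouse was left out. Mouse 2276 was the HrasG12V mouse in which most of these same genes were high. P-values without it therefore describe the dependence on that mouse and are no independent support for a decrease.

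**Figure D2:**
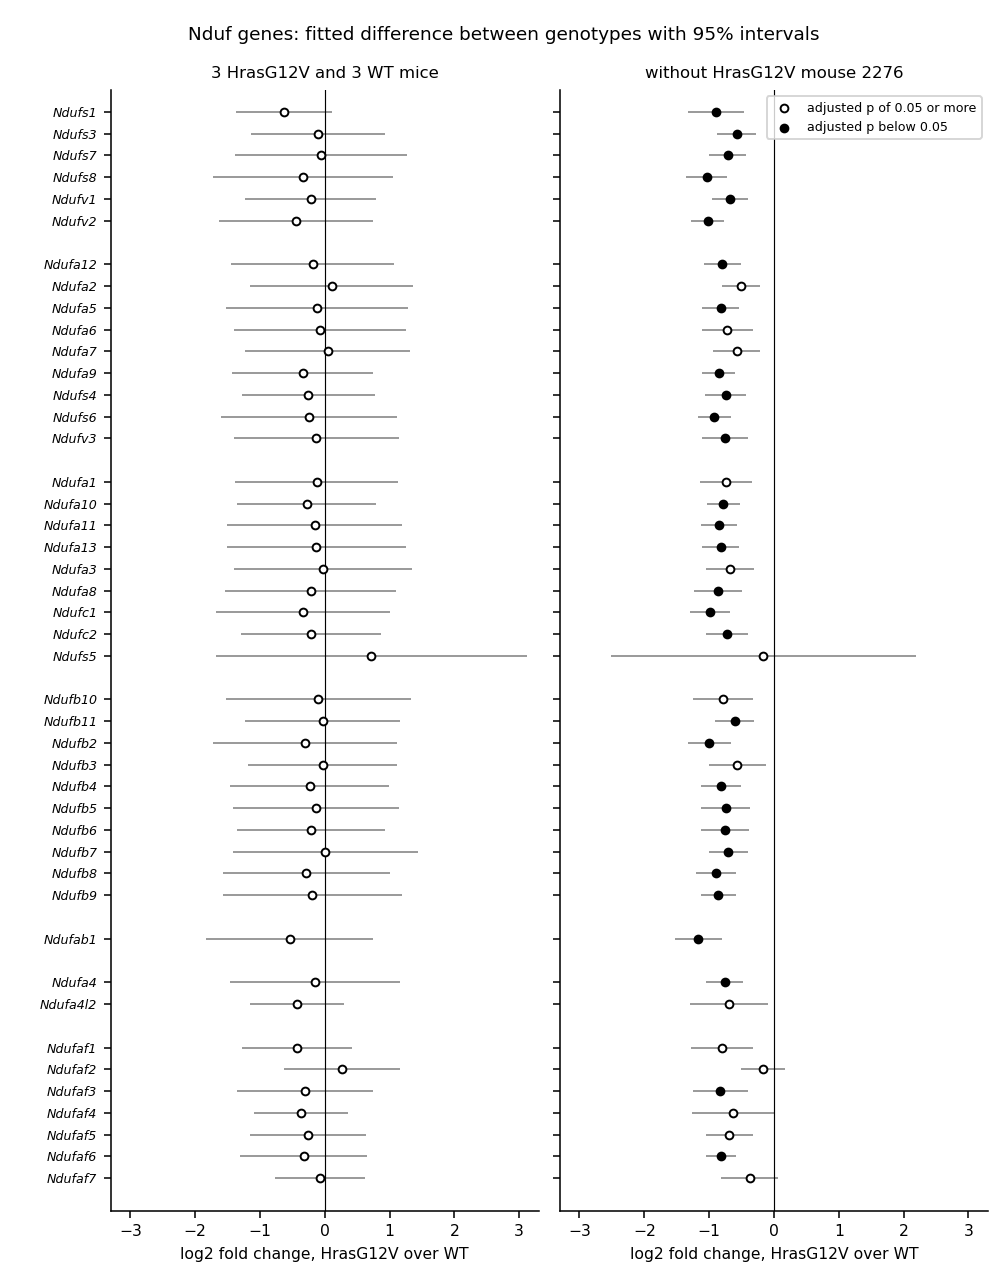
Points are fitted log2 fold changes of HrasG12V over WT for the 44 Nduf genes in the order of the plot by mouse, with 95% intervals, from all 6 mice (left) and without HrasG12V mouse 2276 (right). Filled points, those with a limma adjusted p below 0.05, number 0 on the left and 30 on the right.

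Of the 7 core subunits encoded in the nucleus, 6 showed the pattern. Their median log2 differences from WT were 0.71, -0.76 and -0.88 in mice 2276, 2278 and 2279. Ndufs1 (chr1:63143596-63176833, minus strand of GRCm38), the iron-sulphur subunit at the matrix tip next to the NADH site, measured 257, 231 and 232 FPKM in the WT mice and 225, 151 and 110 FPKM in mice 2276, 2278 and 2279. It was the one member below WT in every HrasG12V mouse, although mouse 2276 was close under the lowest WT mouse. Its log2 fold change of -0.63 (SE 0.31) had the lowest p of all members in the limma fit, 0.085, and an adjusted p of 0.545.

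Ndufv1, which binds the flavin and NADH, measured 269, 241 and 238 FPKM in WT, and 408, 153 and 157 FPKM in mice 2276, 2278 and 2279. Ndufv2, its iron-sulphur partner, measured 289, 282 and 294 FPKM in WT and 472, 146 and 138 FPKM in the HrasG12V mice. For both genes 1 HrasG12V mouse was above and 2 were below the WT range. With all mice the limma log2 fold changes were -0.22 (SE 0.42, adjusted p 0.902) and -0.45 (SE 0.50, adjusted p 0.812), and without mouse 2276 Ndufv2 fell by 1.02 (SE 0.10, adjusted p 0.0071).

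Ndufs7 carries the last cluster before the quinone site, and Ndufs8 carries the clusters before it. Ndufs7 measured 346, 309 and 344 FPKM in WT and 781, 197 and 209 FPKM in mice 2276, 2278 and 2279. Ndufs8 measured 198, 185 and 186 FPKM in WT and 396, 102 and 84.1 FPKM in HrasG12V. In mouse 2276, Ndufs7 was at 2.35 of the WT mean. Ndufs3, a core subunit of the same module without a cluster, measured 348, 325 and 361 FPKM in WT and 616, 247 and 216 FPKM in HrasG12V. Adjusted p in the limma fit of all mice ran from 0.545 to 0.985 over the 7 core genes, and all 7 passed without mouse 2276, with log2 fold changes of -0.57 to -1.04.

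The 9 accessory subunits of the matrix arm all showed the pattern. Their median log2 differences were 1.12, -0.72 and -0.88 in mice 2276, 2278 and 2279, and 6 of 9 passed the adjusted p without mouse 2276. Ndufa2, a small thioredoxin-like subunit, measured 218, 190 and 206 FPKM in WT and 517, 138 and 149 FPKM in HrasG12V. Ndufa7 measured 214, 184 and 213 FPKM in WT and 497, 124 and 151 FPKM in HrasG12V. These were among the 5 members with a fold change above 0 in the fit of all mice, at 0.11 (SE 0.52) and 0.05 (SE 0.53), and their intervals ran past 1 in both directions.

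In the membrane arm, 8 of 9 accessory subunits near the joint with the matrix arm and all 10 distal subunits (Ndufb genes) showed the pattern. The medians were 1.10, -0.79 and -0.78 for the first group and 1.09, -0.61 and -0.88 for the second in mice 2276, 2278 and 2279. Ndufa3, a single-helix subunit, measured 649, 602 and 623 FPKM in WT and 1505, 347 and 440 FPKM in HrasG12V. Ndufb9, a LYR-motif subunit, measured 617, 587 and 628 FPKM in WT and 1348, 335 and 339 FPKM in HrasG12V. With Ndufa4 these were the 3 most abundant members. Ndufb7, which faces the intermembrane space, was the distal subunit farthest above the WT mean in mouse 2276, by 1.43 on the log2 scale, at 267, 262 and 270 FPKM in WT and 717, 178 and 150 FPKM in HrasG12V.

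Ndufs5 (chr4:123712710-123718202, minus strand), another subunit facing the intermembrane space, was the exception in the membrane arm. It measured 11.3, 1.86 and 12.2 FPKM in the WT mice and 36.2, 8.36 and 3.89 FPKM in mice 2276, 2278 and 2279. WT mouse 2280 was below every other mouse, and both genotypes were widely spread. Its log2 fold change of 0.72 had the largest SE of all members, 1.0, and an adjusted p of 0.857 (limma). Ndufs5 stood far below other subunits of the finished enzyme, and RefSeq lists a copy, Ndufs5-ps, that can share its reads. Ndufa11, Ndufa12, Ndufab1, Ndufb4 and Ndufs6 have named copies too, so the levels of these 6 genes are uncertain.

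Ndufab1, the mitochondrial acyl carrier protein, is bound to both arms and also serves fatty acid and lipoic acid synthesis. It measured 284, 259 and 260 FPKM in WT and 437, 134 and 106 FPKM in mice 2276, 2278 and 2279. It had the most negative fold change without mouse 2276, where it fell by 1.17 on the log2 scale (SE 0.14, limma adjusted p 0.0138). In the fit of all mice the same gene was at -0.54 (SE 0.54, adjusted p 0.780).

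The 2 members that share only the prefix behaved differently from each other. Ndufa4 (chr6:11900292-11907497, minus strand), which is known as a subunit of complex IV, was the most abundant member at 982, 939 and 959 FPKM in WT, and at 1998, 558 and 574 FPKM in mice 2276, 2278 and 2279. It thus followed the subunits of complex I. Ndufa4l2, its hypoxia-inducible paralogue, measured 15.5, 23.8 and 19.9 FPKM in WT and 21.0, 13.9 and 10.2 FPKM in HrasG12V. Mouse 2276 lay inside the WT range for this gene, and its log2 fold change was -0.43 (SE 0.30, limma adjusted p 0.681).

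Among the assembly factors, Ndufaf1, which acts in building the membrane arm, measured 40.6, 34 and 34.6 FPKM in WT and 45.6, 24.8 and 17.3 FPKM in mice 2276, 2278 and 2279. It was the most abundant of the 7, and of the 6 that were above WT in mouse 2276 it was the nearest to WT, at 0.33 on the log2 scale. Its log2 fold change was -0.43 (SE 0.35, limma adjusted p 0.727). Ndufaf3 and Ndufaf4 work together on the early quinone module. Ndufaf3 measured 12.7, 11.1 and 15 FPKM in WT and 21.3, 7.85 and 6.58 FPKM in HrasG12V. Ndufaf4 measured 14.8, 16.4 and 19.7 FPKM in WT and 18.6, 13.8 and 8.49 FPKM in HrasG12V. These partners differed in mouse 2276, which was above every WT mouse for Ndufaf3 and inside the WT range for Ndufaf4.

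Ndufaf5 and Ndufaf7 are methyltransferase-like proteins that modify core subunits, and Ndufaf6 acts early in assembly. Ndufaf5 measured 13.6, 13.7 and 15.7 FPKM in WT and 22.0, 9.96 and 7.86 FPKM in mice 2276, 2278 and 2279. Ndufaf6 measured 16.1, 15.4 and 16.3 FPKM in WT and 25.3, 9.37 and 8.61 FPKM in HrasG12V. Ndufaf7 measured 9.07, 8.77 and 8.2 FPKM in WT and 12.5, 7.96 and 5.59 FPKM in HrasG12V. All 3 genes had mouse 2276 above and the other mutants below the WT range, and in mouse 2278 Ndufaf7 lay just under it. Without mouse 2276, Ndufaf6 fell by 0.82 (SE 0.09, limma adjusted p 0.0116) and Ndufaf3 fell by 0.83 (SE 0.17, adjusted p 0.0456), and the other 5 did not pass.

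Ndufaf2, a paralogue of the subunit Ndufa12 that acts late in assembly, was the least abundant member by the mean over all mice, though not in HrasG12V alone. It measured 6.81, 7.96 and 7.02 FPKM in WT and 16.3, 7.06 and 5.87 FPKM in mice 2276, 2278 and 2279. Mouse 2276 was about as far above WT as for the subunits, while mouse 2278 lay inside the WT range. Its log2 fold change of 0.27 (SE 0.37, limma adjusted p 0.854) was the only one above 0 among assembly factors, and without mouse 2276 it was -0.17 (adjusted p 0.444).

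Since most members moved together from mouse to mouse, the 250 bases before their annotated starts were searched for the motifs of factors known to act on respiratory chain genes. RefSeq promoters of GRCm38.p6 were matched for 39 of 45 members. Ndufa2, Ndufa4l2, Ndufaf6, Ndufb9 and Ndufs1 were among the others. Both strands were searched for exact matches. CCGGAAG, a form of the ETS motif that GABPA binds, was in 4 of 39 members or 10.3%, against 14.9% of the genes tested and 7.83% of all promoters. GCGCATGCG, the NRF1 motif, was in 3 members or 7.69%, against 3.34% of the genes tested and 1.64% of all promoters. AAGGTCA, the ESRRA motif, was in 3 members or 7.69%, against 3.60% of the genes tested and 4.70% of all promoters, and AAGATGGCG, the YY1 motif, was in 0 of 39, against 1.37% and 0.710%. Any of the motifs was in 25.6% of the members and in 21.5% of the genes tested, so most members held none of these letters in this window.

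The 120 bases before the start are shown, 5′ to 3′ on the strand of the gene, for the 7 members with a match inside them, with the matched bases in capitals. The ETS motif stood 27, 20 and 18 bases before the start of Ndufs3 at chr2:90904722-90904841 (minus strand), Ndufb7 at chr8:83566638-83566757 (plus strand) and Ndufaf1 at chr2:119662835-119662954 (minus strand).
Ndufs3: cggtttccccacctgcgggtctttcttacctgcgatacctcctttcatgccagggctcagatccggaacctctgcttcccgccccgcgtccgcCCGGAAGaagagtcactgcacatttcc
Ndufb7: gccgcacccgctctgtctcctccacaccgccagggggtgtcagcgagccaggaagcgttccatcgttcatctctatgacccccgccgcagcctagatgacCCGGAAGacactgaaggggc
Ndufaf1: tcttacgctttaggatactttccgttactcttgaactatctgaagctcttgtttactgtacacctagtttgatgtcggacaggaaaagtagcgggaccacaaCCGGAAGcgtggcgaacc
The NRF1 motif stood in Ndufa8 at chr2:36049339-36049458 (minus strand), Ndufa11 at chr17:56717642-56717761 (plus strand) and Ndufaf4 at chr4:24897963-24898082 (plus strand), and in the last 2 it reads on both strands with all but 1 base shared.
Ndufa8: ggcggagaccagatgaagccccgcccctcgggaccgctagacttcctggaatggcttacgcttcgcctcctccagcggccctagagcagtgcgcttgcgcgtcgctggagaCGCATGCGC
Ndufa11: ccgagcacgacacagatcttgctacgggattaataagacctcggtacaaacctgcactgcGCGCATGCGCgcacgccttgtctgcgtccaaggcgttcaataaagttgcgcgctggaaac
Ndufaf4: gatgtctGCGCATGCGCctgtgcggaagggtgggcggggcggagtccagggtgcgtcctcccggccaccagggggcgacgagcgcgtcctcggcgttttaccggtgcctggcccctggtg
The ESRRA motif stood in Ndufb4 at chr16:37654369-37654488 (minus strand).
Ndufb4: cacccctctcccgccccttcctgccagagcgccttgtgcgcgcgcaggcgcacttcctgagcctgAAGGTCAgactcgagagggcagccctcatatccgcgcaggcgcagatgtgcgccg
Of these 7 genes, 6 had mouse 2276 above and mice 2278 and 2279 below every WT mouse, as did most members with no match, and Ndufaf4 did not. Among them Ndufa8 measured 278, 254 and 268 FPKM in WT and 561, 167 and 129 FPKM in mice 2276, 2278 and 2279, Ndufa11 measured 42.1, 37.8 and 43.3 FPKM in WT and 96.7, 24 and 21.6 FPKM in HrasG12V, and Ndufb4 measured 390, 368 and 427 FPKM in WT and 750, 215 and 233 FPKM in HrasG12V. A match is a description of the sequence and says nothing of binding in this muscle.

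Subunits and assembly factors were compared by their medians only. The subunit median was higher by 0.12 on the log2 scale in the fit of all mice. Without mouse 2276 it was lower by 0.09, so the sign of their difference turned with that mouse. Over all settings the difference ran from -0.09, with array weights, to 0.20, without HrasG12V mouse 2278. It was 0.05 with the length trend removed and 0.04 without WT mouse 2281. The order of the members by FPKM was similar in all mice, with Spearman's rho of 0.913 to 0.990 across the 45 genes for the 15 pairs of mice, which share the same genes and transcript lengths.

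The other complexes of the respiratory chain were read from the same fit. Complexes II, III and IV pass electrons on to oxygen, and the ATP synthase uses the proton gradient. Of their 41 nuclear genes, 38 had mouse 2276 above and mice 2278 and 2279 below every WT mouse: 3 of 4 in complex II, 9 of 9 in complex III, 11 of 13 in complex IV and 15 of 15 in the ATP synthase. Their medians in mice 2276, 2278 and 2279 were 1.01, -0.85 and -0.84, close to those of the Nduf subunits. In mouse 2276 that median was 0.37 with the same total FPKM, 0.32 with the length trend removed and 0.23 after quantile normalization, and 29, 34 and 25 of the 41 genes had the pattern. The exceptions in complex IV were Cox6a1 and Cox8a, isoforms used outside striated muscle, while Cox7a2, another such isoform, had the pattern. In the fit of all mice, fold changes ran from -0.56 for Sdha to -0.36 for Sdhc in complex II, from -0.54 for Uqcrc2 to 0.002 for Uqcrh in complex III, from -0.37 for Cox5a to 0.47 for Cox8a in complex IV, and from -0.45 for Atp5g1 to 0.02 for Atp5g2 in the ATP synthase. No gene of these 41 had an unadjusted p below 0.05 in the limma fit of all mice, and 39 were lower at that limit without mouse 2276, 36 of them with an adjusted p below 0.05.

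Complex I assembly factors without the prefix were read in the same way, and their median transcript length was 2250 bases. Of 9 on the list, 8 were matched, and 6 of these had the pattern, with medians of 0.33, -0.41 and -0.56 in mice 2276, 2278 and 2279. Fold changes ran from -0.40 for Tmem126b, a partner of Ndufaf1, to -0.01 for Foxred1, an oxidoreductase, and 0 of 8 had an unadjusted p below 0.05. The gene 1810043H04Rik, an older symbol of Ndufaf8 and so outside the prefix, measured 23.8, 21.9 and 25.5 FPKM in WT and 54.8, 15.7 and 12.7 FPKM in HrasG12V. The 12 genes of the tricarboxylic acid cycle, which supplies NADH to complex I, had medians of 0.34, -0.78 and -0.70, and 7 had the pattern, with fold changes from -0.74 for Idh3a to -0.25 for Idh3g. In mouse 2276 the median of this cycle was nearer to WT than that of the subunits.

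**Figure D3:**
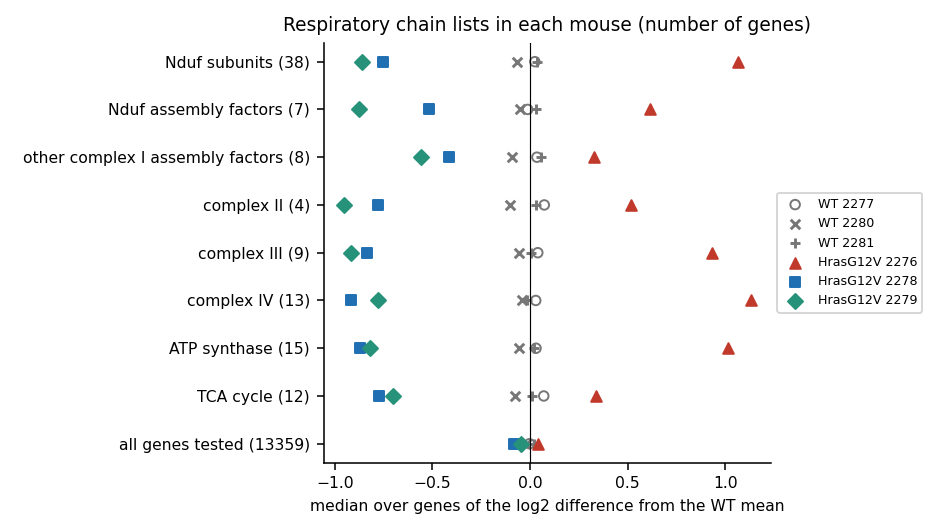
Each symbol is the median over the genes of a list (number in brackets) of the log2 difference of 1 mouse from the WT mean, for the Nduf genes, other respiratory chain lists and all genes tested. Mouse 2276 (triangles) is at 1.07 for the subunits and 0.61 for the assembly factors, and mice 2278 and 2279 are between -0.41 and -0.95 for every list but that of all genes.

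Transcript length moved with the difference in mouse 2276. Nduf subunits had a median transcript length of 810 bases and assembly factors of 1451 bases, against 2582 bases for all genes tested. Across the 45 members, the log2 difference of mouse 2276 from WT was lower at greater log length (Pearson's r -0.65, Spearman's rho -0.71), and across all 13267 genes with a length r was -0.25 and rho -0.50. In mice 2278 and 2279, r over the members was -0.04 and -0.44 and rho -0.025 and -0.39, while over all genes r was -0.09 and -0.08 and rho 0.03 and 0.07. These are descriptions across genes of 1 library, which are not independent replicates.

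Genes of 500 to 1000 bases had a median of 0.80 over all 1093 genes in mouse 2276 and 1.11 over the 23 Nduf genes among them. Below 500 bases, 265 of 443 genes were listed at 0 in at least 1 library, and the median in mouse 2276 was 0.77 over the other 178, a restriction added after the data were seen, and 1.16 over the 4 Nduf genes. At 1000 to 2000 bases the medians over all genes and the Nduf genes were 0.43 and 0.71, and at 2000 to 4000 bases they were 0.0019 and 0.62. In the class of 500 to 1000 bases mice 2278 and 2279 were at -0.14 and -0.17 over all genes and at -0.65 and -0.88 over the Nduf genes. With the length trend of each library removed, the subunit medians were 0.36, -0.59 and -0.70 in mice 2276, 2278 and 2279, the assembly factor medians 0.33, -0.39 and -0.73, and 33 subunits and 3 assembly factors still had the pattern, against 10.4% of all genes under that setting. The subunits of mouse 2276 were then nearer to WT, while those of the other mice kept most of their distance from it.

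Scaling changed the size of the differences too. Setting each library to the same total FPKM moved the median of all genes to -0.57, 0.19 and 0.28 in mice 2276, 2278 and 2279. The subunit medians were then 0.42, -0.48 and -0.53, and those of the assembly factors -0.03, -0.24 and -0.55, and 0 of 7 assembly factors had the pattern, with the scaling itself lowering every gene of mouse 2276. The pattern was still seen for 30 subunits, against 1.93% of all genes under that setting. Relative to the median of all genes, both the subunits and the assembly factors stayed higher in mouse 2276 and lower in the others. After quantile normalization the subunit medians were 0.32, -0.43 and -0.64, and 27 subunits and 3 assembly factors had the pattern, against 11.6% of all genes under that setting. The parts that length, library composition and the lymphoid and adipocyte markers of mice 2278 and 2279 play in these differences were not tested.

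**Figure D4:**
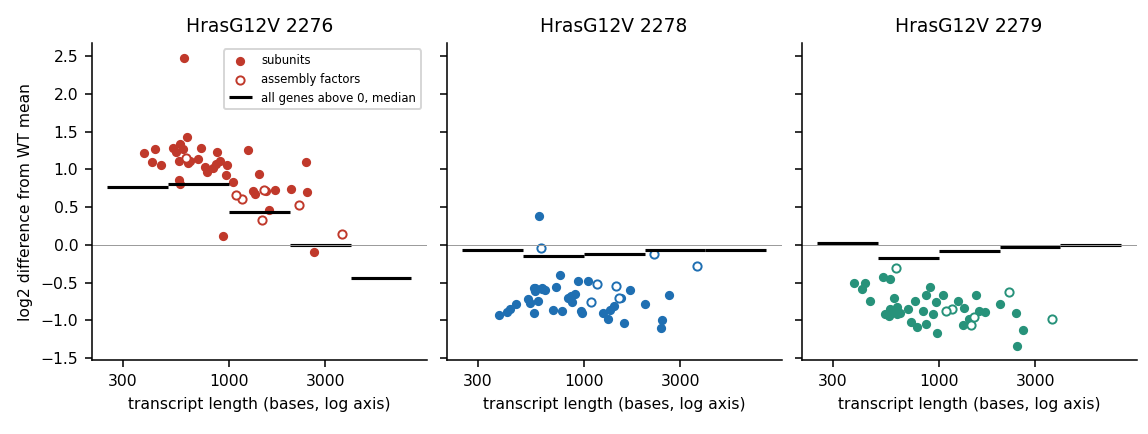
Log2 difference from the WT mean (vertical axis) against transcript length on a log axis for the 45 Nduf genes in each HrasG12V mouse, with black bars for the median of the genes tested that were above 0 in all 6 libraries in each length class (the outer classes are open ended). In mouse 2276 the Nduf genes lie higher the shorter they are, and the bars step down from 0.80 at 500 to 1000 bases to -0.44 above 4000 bases and stand at 0.77 below 500 bases, and in mice 2278 and 2279 the Nduf genes lie below the bars at nearly every length.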

How the data were processed

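Gastrocnemius muscle of 3 HrasG12V and 3 WT mice was profiled in 1 library per mouse with a stranded mRNA kit and single-end reads. The authors aligned reads with TopHat and made FPKM per gene with Cufflinks and Cuffnorm, and the deposited FPKM were used as they stand. The submitters' processing notes name GRCm38 and mm10, and for tool versions and the gene annotation the entry is: not given in the sources used here. Because Cuffnorm rescales the libraries, an FPKM total says nothing of depth. The study's methods state a nominal number of reads per sample, and the depth of single libraries was not analysed here. Ratios of low values between libraries were searched for the steps that counted reads would leave. The fullest interval, 0.01 wide in log ratio, held 0.934% to 6.58% of genes, so reads could not be recovered and the tests were made on a log scale.

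The members are all symbols starting with Nduf. The members, roles and lists were chosen with earlier results of these data known. log2(FPKM + 0.1) of the 13359 genes with a mean of at least 0.5 FPKM was fitted with limma 3.58.1 under R 4.3.3 (moderated with an abundance trend, no covariate, Benjamini-Hochberg over all genes tested, limit 0.05), in which all 45 members were tested. P-values set the genotype difference against the spread between mice, pooled over both genotypes. The spread was larger in HrasG12V than in WT for all 45 members. In simulated data of 13359 genes with 200 changed by 2 on the log2 scale, 184 to 189 were found at an unadjusted p below 0.05. Detection of changes smaller than 2 on the log2 scale was not tested. The fitted medians with all mice were -0.19 for Nduf subunits and -0.31 for assembly factors. Lists were described by counts and medians, without a test. Named with values were all Ndufaf genes, the core genes except 1 that enters the counts and is not reported here, Ndufa4 and Ndufa4l2, the 5 highest and 5 lowest fold changes, the 3 most and 3 least abundant members, and in the other respiratory lists the highest and lowest fold changes and Ppargc1a. Cox6a1, Esrra, Gabpa, Nrf1, Cox7a2 and the marker genes were named after their values were seen. Ndufa8, Ndufa11 and Ndufb4 were added for their promoters. The gene 1810043H04Rik was named after its symbol had been matched.

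The alternative settings were a pseudocount of 1 or 0.01, genes left unfiltered or filtered at 1 FPKM, quantile normalization, median centring, the same total FPKM, removal of each library's lowess trend over transcript length (span 0.3), no or robust moderation, array weights and leaving out each mouse. Lengths (the median over basic transcripts) and positions were those of GENCODE vM21 (GRCm38), where 99.3% of genes tested and all 45 members had a length. Promoters came from RefSeq on GRCm38.p6, with 37 of 41 entries of members found to run into an annotated transcript start. Figures were drawn with matplotlib 3.10.9.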

Additional observations from a re-analysis of the deposited data

How the results depend on the processing

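No paired analysis was possible because the labels do not give the litter of each mouse. With all 6 mice and equal weights, no setting gave an Nduf gene an adjusted p below 0.05. The count of Nduf genes lower at an unadjusted p below 0.05, 0 in the main setting, was 2 after quantile normalization, 2 with the same total FPKM, 1 with the length trend removed and 33 with array weights, where 6.48%, 2.49%, 4.44% and 12.3% of all genes were lower. Array weights gave mouse 2276 a weight of 0.0933. The count was 0 to 41 when 1 mouse was left out. With array weights the adjusted count was 0, where 572 of the 13359 genes tested passed in either direction, against 8 in the main setting. Over the mice left out the adjusted count was 0 to 31. In every such range the upper end came without HrasG12V mouse 2276. Complexes II to V gave 0, then 6 after quantile normalization, 3 with the same total, 34 with array weights and 0 to 39 over the mice left out. The tricarboxylic acid cycle gave 0, then 5, 5, 12 and 0 to 12. Complex I assembly factors without the prefix gave 0, then 1 each with no filter, the same total, the length trend removed or no moderation, 6 with array weights and 0 to 7 over the mice left out.

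Of the log2 fold changes that turned sign, Ndufa2 was -0.055 with the length trend removed and -0.43 with array weights, Ndufa7 was -0.12 and -0.49, Ndufaf2 was -0.085 with array weights, and Ndufb7 was -0.068 after quantile normalization, -0.0055 with the same total, -0.15 with the length trend removed and -0.57 with array weights. Over the mice left out the ranges were -0.51 to 0.44 for Ndufa2, -0.68 to 0.38 for Ndufa3, -0.76 to 0.16 for Ndufa4, -0.57 to 0.43 for Ndufa7, -0.17 to 0.56 for Ndufaf2, -0.83 to 0.012 for Ndufaf3, -0.69 to 0.048 for Ndufaf5, -0.37 to 0.20 for Ndufaf7, -0.70 to 0.42 for Ndufb7, -0.86 to 0.15 for Ndufb9, -0.57 to 0.18 for Ndufs3, -0.16 to 1.43 for Ndufs5, -0.71 to 0.28 for Ndufs7, -1.04 to 0.081 for Ndufs8 and -0.68 to 0.023 for Ndufv1. The causes were not tested. Over the 23 Nduf genes that the rule for naming covers, 345 of the alternative values kept direction and side of the threshold, 34 turned sign and 12 passed the adjusted p in the same direction.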

Other observations

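Of 6 regulators of mitochondrial biogenesis, Ppargc1a, the coactivator that raises respiratory chain genes in muscle, measured 9.19, 8.96 and 10.1 FPKM in WT and 5.48, 5.22 and 6.05 FPKM in mice 2276, 2278 and 2279. It was below WT in all 3 HrasG12V mice, including mouse 2276, in which the Nduf subunits were high. Its log2 fold change was -0.74 (SE 0.14), with an unadjusted p of 0.00127 and an adjusted p of 0.288 in the limma fit, so it did not pass. Esrra, the orphan nuclear receptor that works with it, measured 45.9, 42.4 and 49.5 FPKM in WT and 69.6, 23.4 and 23.0 FPKM in HrasG12V, and was the 1 regulator of the 6 with the order seen in the Nduf genes. Gabpa measured 12.1, 12.3 and 12.1 FPKM in WT and 6.6, 10.4 and 11 FPKM in HrasG12V, lowest in mouse 2276. Transcript lengths were 4609 bases for Ppargc1a and 3594.5 bases for Gabpa. In mouse 2276 the median over all genes was -0.44 above 4000 bases and 0.0019 at 2000 to 4000 bases. The part of length in the values of these regulators was not tested. Nrf1 measured 4.60, 4.85 and 5.34 FPKM in WT and 5.35, 4.69 and 6.21 FPKM in HrasG12V, with overlap between genotypes. The fold changes of the other regulators were negative, and 0 of 6 had an adjusted p below 0.05 with all mice.

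Myh2, the myosin of oxidative 2A fibres, measured 508, 425 and 117 FPKM in WT mice 2277, 2280 and 2281 and 636, 193 and 243 FPKM in HrasG12V mice 2276, 2278 and 2279. WT mouse 2281, low in this gene and in slow fibre markers, had Nduf subunits at the level of the other WT mice. The part of fibre type in the Nduf levels was not tested.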
